A study of Homo sapiens with 15 samples.

Results

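The mature arms of the hairpins miR-6505 and miR-651 were followed through all libraries of a study of FTO and N6-methyladenosine (m6A) in miRNAs. Every entry of the count tables that carries either hairpin number was taken, which gave 4 arms of 2424 entries, namely hsa-miR-6505-5p, hsa-miR-6505-3p, hsa-miR-651-5p and hsa-miR-651-3p. All 4 are among the 2418 entries of the knockdown libraries, and 3 are among the 2189 entries of the RIP-seq libraries, from whose table miR-651-3p is missing. The hairpins were chosen because miR-6505-5p and miR-651-5p had the largest mean ratios after FTO knockdown, so every value of that comparison is given below as a description, without a test.

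HEK293, a human embryonic kidney line, was used in the form of its Flp-In T-Rex derivatives FTO1C1, FTO2D4 and FTO3C3. Each of these clones gave 1 library per condition. In the knockdown experiment, each uninduced clone received either FTO specific siRNA or scrambled siRNA at 10 nM with lipofectamine. Small RNA was taken after 48 h. The sample labels of the RIP-seq experiment name the clone but no siRNA, and these cells are called untreated below. Their small RNA was sequenced as it was (input), or after it had been precipitated. The antibody was either one against m6A (m6A samples) or an IgG isotype control (IgG samples). There were thus 15 libraries in 5 groups of 3. The mRNA of FTO was not counted, so the loss of FTO cannot be read from these values.

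A miRNA hairpin is cut out of a longer transcript by Drosha and then trimmed by Dicer to a short duplex, so that its 5p and 3p arms are made together. Usually the arm that Argonaute retains is the more abundant, and its bases 2 to 8, the seed, choose the mRNAs it represses. FTO removes the methyl group of m6A from RNA, and the antibody used in the RIP-seq binds m6A.

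The mature sequences show what was counted, with the seed in capitals (RefSeq, GRCh38.p14, plus strand, 5′ to 3′).

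miR-6505-5p: uUGGAAUAggggauaucucagc

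miR-6505-3p: uGACUUCUaccucuuccaaag

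miR-651-5p: uUUAGGAUaagcuugacuuuug

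miR-651-3p: aAAGGAAAguguauccuaaaag

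miR-6505-5p lies at chr12:48132800-48132821 and miR-6505-3p at chr12:48132847-48132867, within the span of PFKM, the gene of the muscle type of phosphofructokinase, a glycolytic enzyme. miR-651-5p lies at chrX:8126980-8127001 and miR-651-3p at chrX:8127018-8127039, within the span of the long non-coding RNA gene LOC107985675. The table used gives gene spans only, so exon or intron was not looked up. Each of the 4 seeds was carried by 0 other human miRNAs of the RefSeq table, so within that table the arms have no family by seed and share none with each other. The counting rule of the study asked for exact matches of at least 7 bases that cover at least 17 bases of a read. Read against the members, the mature sequence of no other miRNA among 2369 reached that cover, and the closest, miR-3922-3p on miR-651-5p, had 12 covered bases. By this rule, no whole mature sequence of another miRNA in the RefSeq table would be counted on an arm. Of the 2424 entries, 2127 had a RefSeq sequence, so the remaining entries were not compared, and no reads were examined. GAC and AAC are the core letters of most known m6A sites in mRNA. GAC was found in miR-6505-3p and miR-651-5p. It was also found in 24.2% of the 2122 knockdown entries with a sequence. AAC, present in 16.7%, was in none of the 4 arms, and miR-6505-5p held neither.

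The knockdown libraries held between 1991317 and 3876806 reads on miRNAs and the RIP-seq libraries between 186446 and 4973238. The unit of a level below is RPM, the reads of an arm among 1000000 miRNA reads, and 1 read was worth between 0.258 and 0.502 RPM in the knockdown libraries and between 0.201 and 5.36 RPM in the RIP-seq libraries. The shallowest was the IgG library of FTO3C3. In the RIP-seq libraries 1 entry, miR-6080, took 15.5% to 71.6% of the reads and so weighs on every RPM value. Its count was 563404 in both the IgG and the m6A library of FTO2D4, and equal counts were found for 6 of all 2189 entries in that pair. It made up 71.6% of the reads of that IgG library and 41.3% of those of the m6A library, so the RPM of FTO2D4 and its ratios of m6A to IgG rest on this count, and whether it was entered correctly in both libraries was not tested. Because of this entry, the RIP-seq results below were also computed with totals that leave it out.

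miR-6505-5p was a rare miRNA with scrambled siRNA and a moderately abundant one with FTO siRNA. It was counted 25, 12 and 17 times with scrambled siRNA in FTO1C1, FTO2D4 and FTO3C3, which is 6.87, 4.87 and 8.54 RPM. With FTO siRNA it was counted 152, 254 and 267 times, or 43.7, 73.4 and 68.9 RPM. All 3 FTO siRNA libraries were above all 3 scrambled siRNA libraries. In the same order of clones the ratio was 6.36, 15.1 and 8.07, with a mean of 9.83 ± 4.61 (SD, n = 3). By its mean RPM it stood at place 1917 of 2418 with scrambled siRNA and at place 482 with FTO siRNA.

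The partner arm, miR-6505-3p, is cut from the same hairpin. It had 23, 20 and 16 reads after scrambled siRNA (6.32, 8.12 and 8.03 RPM) and 17, 25 and 30 reads after FTO siRNA (4.88, 7.22 and 7.74 RPM). The groups overlapped, and the ratio was below 1 in every clone, at 0.773, 0.889 and 0.963, with a mean of 0.875 ± 0.0960 (SD, n = 3). The ratio was thus above 1 for the 5p arm and below 1 for the 3p arm in all 3 clones. For the 3p arm the exact 95% intervals with FTO and scrambled siRNA overlapped in each clone. In FTO1C1, whose ratio was the lowest, they were 2.85 to 7.82 RPM with FTO siRNA and 4.01 to 9.49 RPM with scrambled siRNA.

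miR-651-5p was the more abundant of the risers. Its reads numbered 113, 78 and 82 after scrambled siRNA (31.1, 31.7 and 41.2 RPM) and 548, 903 and 985 after FTO siRNA (157, 261 and 254 RPM). The groups did not overlap. The ratios of 5.07, 8.24 and 6.17 gave a mean of 6.49 ± 1.61 (SD, n = 3), and its place by mean RPM was 646 with scrambled and 232 with FTO siRNA. As for miR-6505-5p, the clone FTO2D4 had the largest ratio and FTO1C1 the smallest.

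miR-651-3p, its partner arm, had 18, 16 and 11 reads after scrambled siRNA (4.95, 6.49 and 5.52 RPM) and 28, 28 and 39 reads after FTO siRNA (8.05, 8.09 and 10.1 RPM). The groups did not overlap here either, although by little. Its ratios were 1.63, 1.25 and 1.82, with a mean of 1.56 ± 0.293 (SD, n = 3). This arm was thus higher with FTO siRNA in every clone, by less than its partner.

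**Figure D1:**
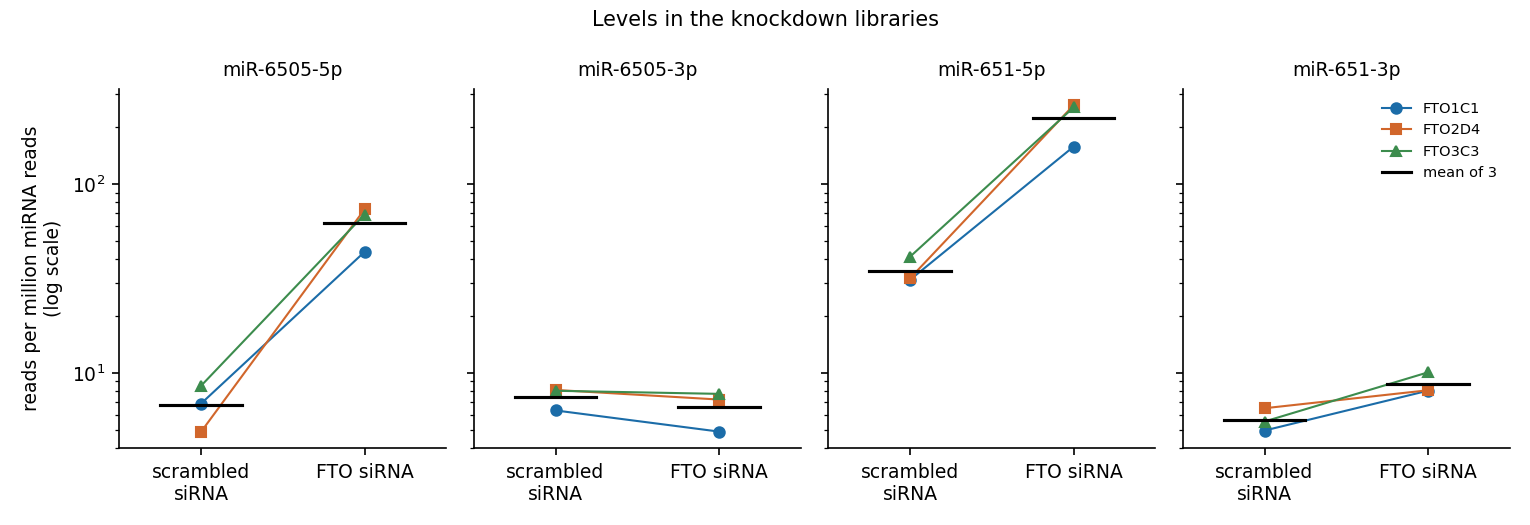
Level of each arm in the 6 knockdown libraries, in RPM on a log axis, with scrambled siRNA on the left and FTO siRNA on the right of each panel. Points joined by a line are the libraries of 1 clone and black bars are the means of the 3 clones. The 5p arms climb steeply in every clone, to means of 62.0 and 224 RPM, while the 3p arms stay between 4.88 and 10.1 RPM.

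For 3 of the 4 arms all FTO siRNA libraries were above all scrambled siRNA libraries, which was also the case for 26.3% of all 2418 entries, while 1.94% had all FTO siRNA libraries below. With edgeR's quasi-likelihood test 4.97% of the 2374 miRNAs tested were called higher with FTO siRNA. Since the hairpins were picked from this comparison, nothing can be read from their count against these shares. Over all miRNAs the log2 fold change had a median of 0.29, so that a typical miRNA was itself a little higher with FTO siRNA on this scale. In the order of the mean ratio among the 1242 miRNAs that reached 15 RPM in each library with FTO siRNA, miR-6505-5p was the first and miR-651-5p the second. They were followed by miR-493-5p, with a mean ratio of 3.99 ± 0.984, and miR-6739-3p, with 3.84 ± 1.03 (SD, n = 3). miR-6505-5p, at 4.87 to 8.54 RPM with scrambled siRNA, entered this order only through its level with FTO siRNA.

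FTO siRNA was given to the knockdown group only, and per the methods of the study the siRNA strands were added to the reference so that their reads could be counted apart. Those reads are not used here. The letters of the strongest risers were compared with these strands after their values had been seen. The run UUUAGGAUA, bases 1 to 9 of miR-651-5p and found in 1 of the 2122 entries with a sequence, also stands in a strand of the FTO siRNA as the methods spell it. GGAUAU, bases 11 to 16 of miR-6505-5p, stands in the same strand. The bases after this run, to the end of miR-6505-5p, also match that strand except for the first of them. GGAUAU alone was in 10 of the 2122 entries, whose median mean ratio was 1.32 against 1.27 for all 2122. These entries were picked by GGAUAU only, and the longer likeness was not looked for in them. The run UAGGCUUU of miR-493-5p (bases 11 to 18) and the run GUUCUGUCU of miR-6739-3p (bases 4 to 12), each in 1 entry, stand in other strands of the FTO siRNA. Where a run was in 1 entry, that entry is the miRNA it was taken from, so this count says nothing about the siRNA. How many of all entries share a run of such a length with any of the strands was not counted, so these likenesses have no background share. Each of these runs alone is shorter than the 17 bases that a counted read had to cover. The rule adds up all matching stretches of a read that have at least 7 bases. GGAUAU, with 6 bases, and the matching bases after it each fall short of the 7 that a stretch needed to count. No reads of the siRNA were examined, so whether any reached that cover was not tested. A change in the miRNAs and reads of the siRNA counted on them cannot be told apart in the knockdown libraries.

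The share of the 5p arm among the reads of a hairpin does not depend on how libraries are scaled. In the scrambled siRNA libraries miR-6505-5p made up 52.1%, 37.5% and 51.5% of the reads on both arms of miR-6505. In the FTO siRNA libraries it made up 89.9%, 91.0% and 89.9%, and a higher share there follows from the choice of hairpins by the rise of their 5p arms. The 95% Wilson intervals ran from 22.9% to 67.5% over the scrambled siRNA libraries and from 84.5% to 93.9% over the FTO siRNA libraries. For miR-651 the 5p share was 85.8% ± 2.63 with scrambled and 96.1% ± 0.930 with FTO siRNA (SD, n = 3). The intervals, like all in this text, cover counting error only, because PCR reads without molecular identifiers are not independent molecules.

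The same share was measured in the untreated cells, for which no siRNA is named. In the input libraries 9 of 25, 5 of 17 and 6 of 27 reads on miR-6505 were of the 5p arm, or 36.0%, 29.4% and 22.2%. In the IgG samples it was 90.7%, 83.6% and 96.6%, and in the m6A samples 72.7%, 57.4% and 82.7%. Before precipitation the 3p arm thus had the more reads in every clone, and after precipitation with either antibody it was the 5p arm. The 95% Wilson intervals still included an equal split in the input libraries of FTO1C1 (20.2% to 55.5%) and FTO2D4 (13.3% to 53.1%). They also did so in the m6A library of FTO2D4 (44.9% to 69.0%). The mean share was 61.1 percentage points higher in IgG than in input samples and 41.7 points higher in m6A than in input samples, while it was 19.4 points higher in IgG than in m6A samples. In each of these 3 comparisons all libraries of a group lay on 1 side of the other group (exact two-sided permutation test, p = 0.1 and adjusted p = 0.1, the smallest that 3 against 3 libraries allow). The 3 comparisons share their libraries pairwise.

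**Figure D2:**
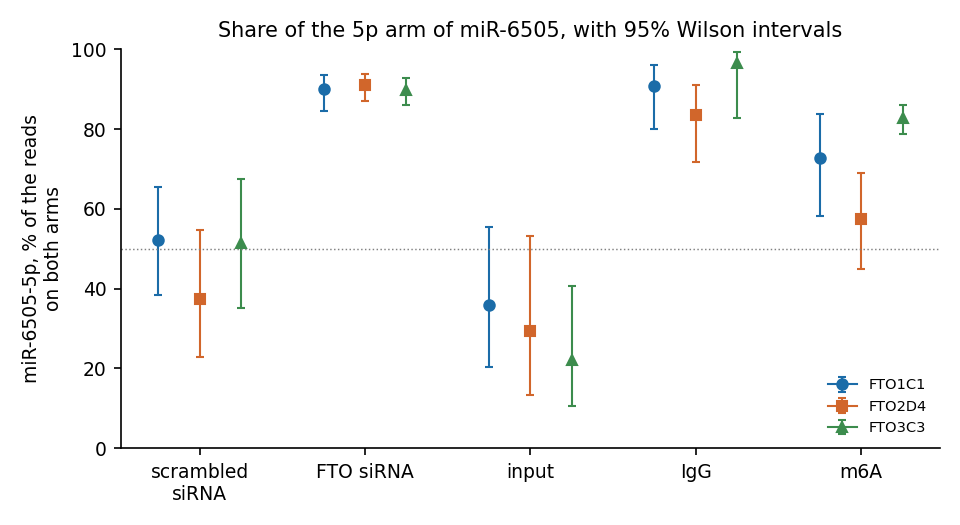
Reads on miR-6505-5p in percent of the reads on both arms of miR-6505, in each of the 15 libraries, with 95% Wilson intervals as bars and the clones by colour and symbol. The dotted line marks an equal split. The share lies between 22.2% and 52.1% in the scrambled siRNA and input libraries and between 57.4% and 96.6% in the FTO siRNA, IgG and m6A libraries.

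The RIP-seq libraries played no part in the choice of the hairpins. In the untreated cells both 5p arms were far more frequent in the precipitates than in the input, and more so with the control IgG than with the m6A antibody. miR-6505-5p had 9, 5 and 6 reads in the input libraries of FTO1C1, FTO2D4 and FTO3C3 (6.39, 3.43 and 3.999 RPM). It had 49, 46 and 28 reads in the IgG samples (66.1, 58.5 and 150.2 RPM) and 32, 35 and 344 reads in the m6A samples (56.2, 25.7 and 69.2 RPM). All libraries of both precipitates were above all input libraries, as they were for 38.3% of the 2189 entries with IgG and 67.9% with m6A, and in each clone the IgG sample was the highest.

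IgG samples exceeded input samples in miR-6505-5p by a log2 fold change of 4.17 ± 0.57 (SE, edgeR adjusted p = 2.96e-12), which is 17.96-fold. The median of the 1941 miRNAs tested was 0.49, and miR-6505-5p stood at place 53 from the highest. m6A samples exceeded input samples by a log2 fold change of 3.40 ± 0.45 (SE, edgeR adjusted p = 1.74e-07), against a median of 1.65 over 2174 miRNAs, at place 211. With totals that leave out miR-6080 the log2 fold changes were 5.29 for IgG and 3.87 for m6A against input (edgeR adjusted p = 5.97e-21 and 3.61e-12). The input counts of this arm were at most 9 reads, which limits the precision of these folds.

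miR-651-5p showed the same order of groups. It had 28, 19 and 18 reads in the input libraries (19.9, 13.0 and 11.997 RPM), 97, 119 and 28 in the IgG samples (130.8, 151 and 150.2 RPM) and 44, 127 and 500 in the m6A samples (77.3, 93.2 and 101 RPM). No groups overlapped, with the input lowest and the IgG samples highest. The log2 fold change was 3.27 ± 0.50 for IgG against input (SE, edgeR adjusted p = 6.99e-10, place 125 of 1941). For m6A against input it was 2.62 ± 0.44 (SE, edgeR adjusted p = 5.9e-06, place 546 of 2174). With totals that leave out miR-6080 these were 4.41 and 3.08 (edgeR adjusted p = 1.93e-18 and 1.03e-08).

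miR-6505-3p, in contrast, kept low counts throughout. It had 16, 12 and 21 reads in the input libraries (11.4, 8.22 and 14.0 RPM), 5, 9 and 1 in the IgG samples (6.74, 11.4 and 5.36 RPM) and 12, 26 and 72 in the m6A samples (21.1, 19.1 and 14.5 RPM). The single read in the IgG sample of FTO3C3 leaves an exact 95% interval from 0.136 to 29.9 RPM. The input and IgG groups overlapped, with a log2 fold change of -0.32 ± 0.62 (SE, edgeR adjusted p = 0.67), which turned to 0.85 (adjusted p = 0.164 by edgeR) with totals that leave out miR-6080. The m6A samples lay just above the input samples, with a log2 fold change of 0.66 ± 0.43 (SE, edgeR adjusted p = 0.158). That value was below the median of all miRNAs and turned to -0.91 with TMM factors (adjusted p = 0.0924 by edgeR) and to -0.89 with DESeq2 (adjusted p = 0.19). With totals that leave out miR-6080 it was 1.14 (adjusted p = 0.0248 by edgeR).

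**Figure D3:**
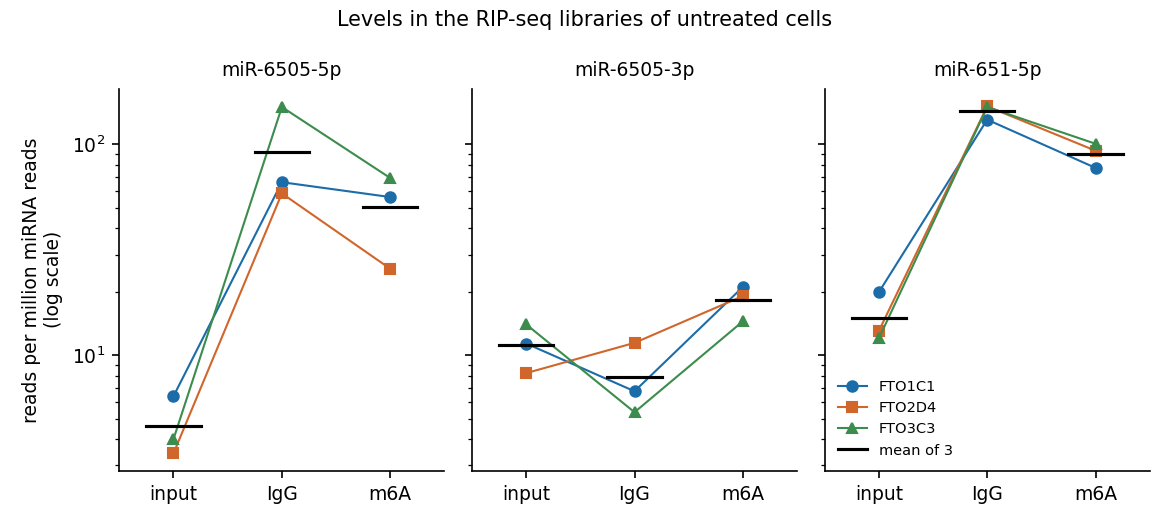
Level of the 3 arms counted in the RIP-seq libraries of untreated cells, in RPM on a log axis, for input, IgG and m6A samples. Points joined by a line are the libraries of 1 clone and black bars are means of the 3 clones. Both 5p arms are lowest in the input and highest in the IgG sample of each clone, and miR-6505-3p stays between 5.36 and 21.1 RPM.

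Of the 3 arms, 2 were called higher in IgG than in input samples, against 36.8% of all miRNAs tested (21.8% were called lower), and the same 2 were called higher in m6A than in input samples, against 66.8%. A call of this kind was therefore common in these libraries, above all for m6A samples. Both comparisons share the input libraries. The shares depend on the scale, as TMM factors, which bring the medians near 0, gave 559 higher and 586 lower calls for IgG and 575 higher and 614 lower for m6A against input. The calls of both 5p arms held on that scale, with log2 fold changes of 3.60 and 2.73 for IgG and 1.85 and 1.08 for m6A against input.

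m6A samples were then set against IgG samples, the comparison by which the study defined methylated miRNAs. The study also set a minimum of normalized reads and of fold enrichment, and these limits were not applied here. Neither 5p arm was enriched in the m6A samples. The ratio of m6A to IgG was 0.850, 0.439 and 0.461 for miR-6505-5p, and 0.591, 0.616 and 0.669 for miR-651-5p, so it was below 1 in every clone for both arms. For miR-651-5p all m6A samples were below all IgG samples, which was the case for 5.48% of the 2189 entries. The log2 fold changes were -0.85 ± 0.35 (SE, edgeR adjusted p = 0.0829) and -0.68 ± 0.31 (SE, edgeR adjusted p = 0.109) and did not pass the threshold of 0.05. For miR-6505-3p the ratios were 3.12, 1.67 and 2.70 and the log2 fold change was 1.16 ± 0.51 (SE, edgeR adjusted p = 0.102), and all m6A samples were above all IgG samples, as for 45.9% of the entries.

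Thus 0 of the 3 arms were called between m6A and IgG samples by edgeR, while 2 had an unadjusted p under 0.05, miR-6505-5p (lower) and miR-6505-3p (higher). Over all 2054 miRNAs, 38.6% were called higher and 1.27% lower in the m6A samples, and the median log2 fold change was 0.83. On this distribution miR-6505-5p stood at place 2001 and miR-651-5p at place 1956 from the highest. On scales that bring the median nearer to 0, both 5p arms were called lower in the m6A samples. The log2 fold changes were then -1.59 and -1.43 with TMM factors (adjusted p = 0.00792 and 0.007 by edgeR), -1.63 and -1.47 with DESeq2 (adjusted p = 0.00278 and 0.00221), and -1.52 and -1.36 with totals that leave out miR-6080 (adjusted p = 0.014 and 0.013 by edgeR). With TMM factors the calls over all miRNAs were 453 higher and 302 lower.

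**Figure D4:**
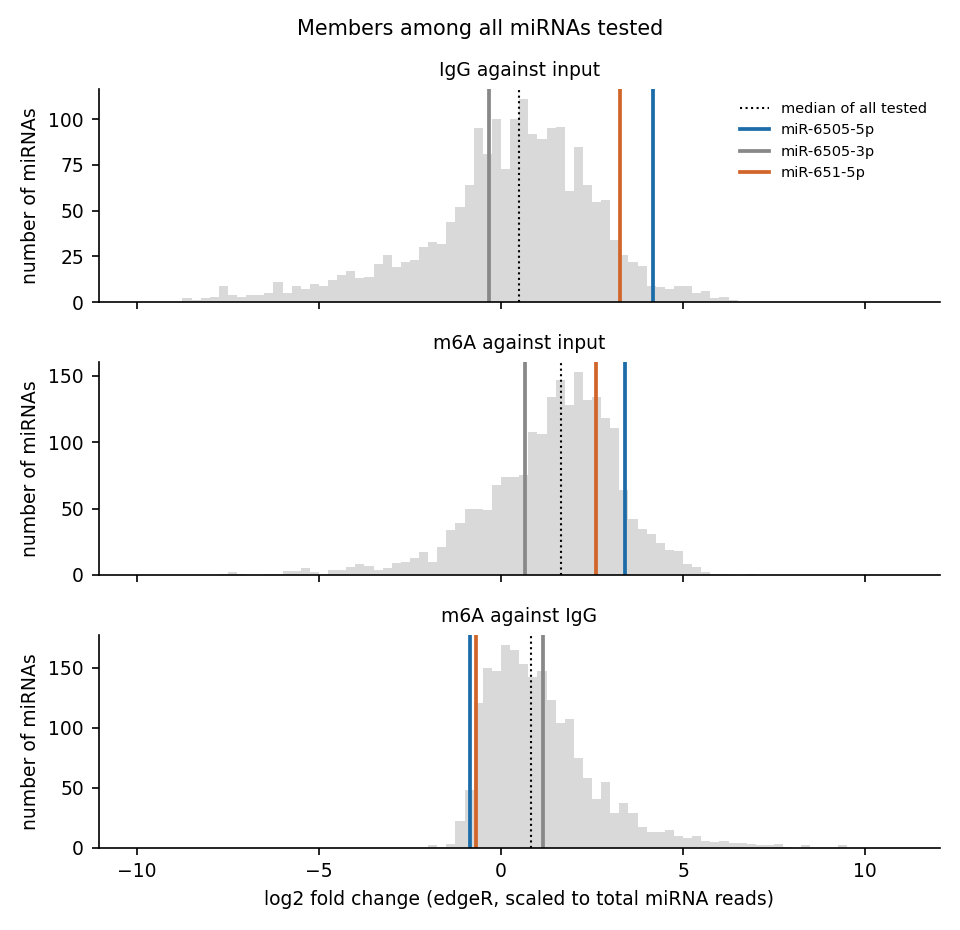
Number of miRNAs by log2 fold change (edgeR, scaled to total miRNA reads) for IgG against input, m6A against input and m6A against IgG, with the median of all miRNAs tested as a dotted line and the 3 arms as coloured lines. The 5p arms stand at 4.17 and 3.27 in the first panel, far right of the median of 0.49, and at -0.85 and -0.68 in the last, left of the median of 0.83.

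The mean level of miR-651-5p was 224 ± 57.8 RPM with FTO siRNA and 34.6 ± 5.68 with scrambled siRNA in the knockdown libraries, and 144 ± 11.5 in IgG, 90.3 ± 11.9 in m6A and 14.96 ± 4.29 in input samples (SD, n = 3). For miR-6505-5p the values were 61.97 ± 15.996 and 6.76 ± 1.84 in the knockdown libraries, and 91.6 ± 50.9 in IgG, 50.3 ± 22.3 in m6A and 4.60 ± 1.57 in input samples. Within the RIP-seq libraries the order of both arms was IgG, m6A and input, and IgG and m6A samples are neighbours whose difference did not pass the test on this scale. Untreated input and scrambled siRNA libraries come from separate experiments and were not tested against each other, and both held the 5p arms at low levels.

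Over the 15 libraries the levels of the 5p arms ran in parallel. On the scale of log2(RPM + 1), the miRNA most like miR-6505-5p among 2148 compared was miR-651-5p, and the reverse was also true (Pearson's r = 0.924 over 15 libraries, which share their totals as denominators). As both were chosen for their rise in 6 of these libraries, this likeness is partly fixed by the choice. The next were miR-6853-5p (0.909) and miR-513c-3p (0.864) for miR-6505-5p, and miR-6510-3p (0.897) and miR-6869-5p (0.882) for miR-651-5p. In the 9 RIP-seq libraries alone, which were not used to choose the hairpins, r between the 5p arms was 0.960, but miR-651-5p held only place 30 in likeness to miR-6505-5p, and miR-6505-5p place 100 in likeness to miR-651-5p, of 2148. The 3p arm did not follow, as r between miR-6505-3p and miR-6505-5p was -0.0831 over the 15 libraries. miR-6505-3p was most like miR-425-5p (0.885), miR-4713-3p (0.859) and miR-6749-5p (0.853).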

How the data were processed

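Counts of reads per mature miRNA were deposited without normalization. Per the methods of the study, cutadapt removed adapters (overlap of 4 bp, up to 20% error), reads from 16 to 28 bp long were retained, and the authors assigned a read to an entry of miRBase release 20 if stretches of 7 or more identical bases together covered 17 or more, with the siRNA strands added for the knockdown libraries. Reads were not aligned to a genome. From these counts, RPM of total miRNA reads were computed without further scaling, as in the study. Groups of the RIP-seq libraries were compared with edgeR's quasi-likelihood test over all miRNAs (filterByExpr, minimum count 10, clone as a block), with p-values adjusted by Benjamini-Hochberg. Arm shares were given with 95% Wilson intervals and exact permutation tests, and counts near 0 with exact intervals. The test was checked on simulated counts. Tests ran in edgeR 4.0.16 with limma 3.58.1 and in DESeq2 1.42.0 under R 4.3.3. Shares and correlations were computed with scipy 1.17.1, pandas 2.3.3 and numpy 2.4.6, and plots with matplotlib 3.10.9, under Python 3.11.15.

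Libraries of the same clone are paired by their titles. Deviations of paired libraries from their group means correlated at 0.118 to 0.190 for FTO and scrambled siRNA and at -0.0747 to 0.0573 among RIP-seq groups. Libraries of a group differed beyond sampling noise (chi-square per degree of freedom 6.11 to 145), so none was a copy. RefSeq sequences (GRCh38.p14) matched 2127 of 2424 entries by name. Named miRNAs are the arms, the 2 next in the order of mean ratio with at least 15 RPM, miRNAs of the same seed and the 3 most alike (at least 10 reads on average in each table). Runs shared with the siRNA and miR-3922-3p were chosen after their values were seen, and the hairpins and lists were chosen with earlier results of these data known. The edgeR p-values measure how the difference within a clone varies over 3 clones with 1 library per condition. The variance of each miRNA was estimated with the help of the other miRNAs, so small p-values do not rest on these 3 clones alone. The permutation test of the arm shares did not use the pairing by clone.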

Additional observations from a re-analysis of the deposited data

How the results depend on the processing

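The alternatives were TMM factors, DESeq2, no filter on low counts, no replicate block, totals without miR-6080, each clone left out, and pooled reads for the arm shares. Both 5p arms kept their direction and their calls against input under all of these. Their adjusted p ran up to 8.58e-07 and 4.52e-05 for IgG and up to 0.00422 and 0.0392 for m6A against input.

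Against IgG, the 5p arms miR-6505-5p and miR-651-5p passed the threshold with log2 fold changes of -1.59 and -1.43 (TMM factors), -1.63 and -1.47 (DESeq2) and -1.52 and -1.36 (totals without miR-6080). Their adjusted p ran from 0.00278 to 0.287 and from 0.00221 to 0.291. miR-6505-3p against input was 1.14 for m6A and turned to 0.85 for IgG with totals without miR-6080, and turned to -0.91 (TMM factors) and -0.89 (DESeq2) for m6A. Its mean ratio after knockdown was 0.723 with TMM factors and 0.719 with DESeq2 size factors. For m6A against IgG it fell below the filter without FTO2D4 and with totals without miR-6080.

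In the knockdown, 130 miRNAs were called, 55 with TMM factors (21 higher, 34 lower), 41 without the replicate block, 0 without FTO1C1 (327 at an unadjusted p under 0.05) and 201 without FTO3C3. DESeq2 called 91 (33 higher, 58 lower) there, 615 (364 and 251) for m6A against IgG, 983 (442 and 541) for IgG against input and 1074 (486 and 588) for m6A against input, where edgeR called 818 (792 and 26), 1137 (714 and 423) and 1681 (1452 and 229). For m6A against IgG 470 were called without FTO2D4 and 730 without FTO1C1, and totals without miR-6080 gave 703 (446 and 257). For IgG against input those totals gave 1504 (1231 and 273). The replicate block changed no call of a member in the RIP-seq. The causes of these shifts were not tested. With 1 to 28 reads per arm in the FTO3C3 IgG sample and 5 to 9 of miR-6505-5p in the input, depth limits the precision of the folds.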
